A study of Homo sapiens with 9 samples.

Results

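The human mitochondrial genome encodes 37 genes, and all 37 were found in the count table by their chromosome, MT, among 60605 genes in all. They are 13 mRNAs for subunits of the respiratory chain and ATP synthase, 2 rRNAs of the mitochondrial ribosome and 22 tRNAs. The genes were selected on their chromosome. The group was chosen by the mitochondrial share of counts against control siRNA, already known to differ between the conditions. Levels of these genes, against control siRNA and between the siRNAs, are therefore given as a description. TE13 cells, an established human esophageal squamous cell carcinoma line, received either a control siRNA or 1 of 2 siRNAs against PARylator, named PARylator siRNA.1 and PARylator siRNA.2. Each of these 3 conditions has 3 libraries. PARylator is the long noncoding RNA LINC00885. The series text calls the replicates biological and does not say whether they came from separate transfections, so p-values refer to these libraries only. The edgeR fit estimates the spread partly from all genes tested together. Its standard errors and intervals can thus be narrower, and its p-values smaller, than a gene's own spread between libraries would give.

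Mitochondrial DNA is a small circle that is transcribed from both strands as long precursor RNAs. Most of its mRNAs and rRNAs are bounded by tRNAs, which are cut out to release them, and most mature mRNAs then receive a short poly(A) tail. Because all genes of a strand start in the same precursor, the unequal levels of mature RNAs also reflect cutting, tailing, stabilisation and decay. These libraries were made by oligo(dT) capture of poly(A)+ RNA, so a transcript was counted only as far as it could be captured. Of the 13 mRNAs, 12 lie on the plus strand of the reference and MT-ND6 lies on the minus strand, as do 8 of the tRNAs.

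Some neighbouring genes share bases, so their counts were not fully separate, and these stretches are shown because the pairs recur in the results. The sequences are from chromosome M of GRCh38, given 5′ to 3′, with the shared bases in capitals. MT-ATP8 and MT-ATP6 share 46 bases within chrM:8507-8592 (plus strand). MT-ATP6 and MT-CO3 share 1 base within chrM:9187-9227 (plus strand), with no tRNA between them. MT-ND4L and MT-ND4 share 7 bases within chrM:10740-10786 (plus strand).
MT-ATP8/MT-ATP6: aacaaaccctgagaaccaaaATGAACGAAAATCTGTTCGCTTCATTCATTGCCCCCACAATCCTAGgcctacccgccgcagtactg
MT-ATP6/MT-CO3: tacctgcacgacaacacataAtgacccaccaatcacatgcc
MT-ND4L/MT-ND4: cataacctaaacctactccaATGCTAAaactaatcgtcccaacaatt

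The only tRNA gene with more than 2 counts in any library was MT-TP, the tRNA for proline, at chrM:15956-16023 on the minus strand. Its whole sequence is shown in capitals, 5′ to 3′, in the sense of the tRNA.
MT-TP: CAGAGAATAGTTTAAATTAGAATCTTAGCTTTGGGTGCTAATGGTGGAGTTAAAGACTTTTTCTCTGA

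Total counts on genes ran from 15337917 to 22559998 per library, and the highest totals were those of siRNA.2. LINC00885 was rare in every library, with 6, 7 and 12 counts in the control libraries, 4, 5 and 2 after siRNA.1, and 2, 0 and 4 after siRNA.2. Its log2 fold change was -1.21 ± 0.95 (SE) after siRNA.1 (edgeR quasi-likelihood test, adjusted p = 0.376) and -2.33 ± 1.01 after siRNA.2 (adjusted p = 0.0659), so the targeted RNA did not pass the test at this depth. The epithelial markers KRT5, KRT14, KRT6A, KRT17, TP63, DSG3, EPCAM and CDH1 were detected in all libraries. Their summed FPKM was 650 to 662 in control, 573 to 600 after siRNA.1 and 563 to 582 after siRNA.2. The sum covers opposite changes. Mean FPKM in that order was 142.5, 40.0 and 55.8 for KRT5, and 133.3, 122.7 and 93.3 for CDH1. It was 99.0, 136.8 and 136.2 for EPCAM, and 78.7, 101.8 and 118.2 for KRT6A. By their means, KRT17 and TP63 also fell after both siRNAs, DSG3 also rose, and KRT14 moved in opposite directions. The summed FPKM of 6 blood cell markers was 0.16 to 0.58 in control, 3.07 to 3.66 after siRNA.1 and 3.28 to 3.75 after siRNA.2, mostly from LYZ, and HBB was at 0 throughout. The summed FPKM of 5 fibroblast markers was 2.22 to 2.41, 1.46 to 1.62 and 1.44 to 1.68 in the same order, with DCN at 0 in both siRNA conditions. Of the RNAs listed for lacking a poly(A) tail, RN7SL1, the RNA of the signal recognition particle, was the only member above 1 count in any library. It was at 60.4 to 64.2 FPKM in control, 41.6 to 55.9 after siRNA.1 and 40.0 to 48.8 after siRNA.2. It thus lay below control in the siRNA libraries, like the mitochondrial share. Its mean was lower after siRNA.2 (45.3) than after siRNA.1 (50.6), with overlapping ranges, whereas the mitochondrial share was lowest after siRNA.1. The part of these differences in the results was not tested.

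The mitochondrial share of the library was lower after both siRNAs. In the control libraries the 37 genes held 7.60%, 7.46% and 7.66% of all counts on genes, after siRNA.1 they held 4.99%, 5.01% and 5.06%, and after siRNA.2 they held 5.54%, 5.56% and 5.56%. The 3 conditions did not overlap, and siRNA.1 was lowest. The means were 7.57% ± 0.10 (SD, n = 3), 5.02% ± 0.04 and 5.55% ± 0.01, a change of -33.7% of the control share after siRNA.1 and -26.7% after siRNA.2. In these bulk libraries, fewer cells of a type and less RNA per cell cannot be told apart, nor can less mitochondrial RNA and more of the other captured RNA.

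The loss was uneven across classes. The share of the library held by the 2 mRNAs of ATP synthase (complex V) changed by -52.3% after siRNA.1 and -45.2% after siRNA.2, and that of the single complex III mRNA by -43.5% and -35.8%. The rRNAs changed by -37.3% and -36.7%, the 3 complex IV mRNAs by -32.9% and -23.9%, and the 7 complex I mRNAs by -29.1% and -21.6%. The tRNAs, almost wholly MT-TP, changed by -11.1% and -7.39%. In absolute terms, complex IV lost most, from 3.13% ± 0.02 (SD, n = 3) of the library to 2.10% ± 0.01 and 2.38% ± 0.02, followed by complex I, from 2.47% ± 0.05 to 1.75% ± 0.01 and 1.93% ± 0.01.

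MT-CO1, MT-RNR2 and MT-CO3 carried 49.3% of the fall in mitochondrial share after siRNA.1 and 53.1% after siRNA.2, although they held 42.8% ± 0.18 (SD, n = 3) of the mitochondrial counts in control. MT-CO1, the catalytic subunit of cytochrome c oxidase and the most counted mitochondrial gene, gave 22.1% of the fall after siRNA.1 and 21.0% after siRNA.2, close to the 21.7% of mitochondrial counts it held in control. MT-CO3 held 7.43% in control and gave 11.8% and 12.6% of the fall. MT-RNR2, the large rRNA, held 13.7% and gave 15.4% and 19.5%. MT-CO2, which carries the copper centre that takes electrons from cytochrome c, held 12.2% and gave 6.40% and 3.34%. MT-ND4 held 14.3% and gave 9.69% and 7.64%. These trios and sets were put together after the values were seen and were not tested as sets.

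Of the 37 genes, 19 had at least 1 count in some library and 17 passed the filter of a mean of at least 0.1 FPKM. Among those 17, 16 were called lower after siRNA.1 and 16 after siRNA.2, where 30.3% and 30.9% of the 21395 genes tested were called in either direction. The contrast is that by which the genes were chosen, and nothing is read from these counts. Fold changes here are of the level, the TMM-scaled share of the library. The median log2 fold change of the 15 mRNAs and rRNAs was -0.64 after siRNA.1 and -0.49 after siRNA.2, beside 0.00 over all genes tested in both comparisons. Values ran from -1.13 (MT-CO3) to -0.31 (MT-CO2) after siRNA.1, and from -1.0 (MT-ND6) to -0.12 (MT-CO2) after siRNA.2, with standard errors between 0.02 and 0.05.

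**Figure D1:**
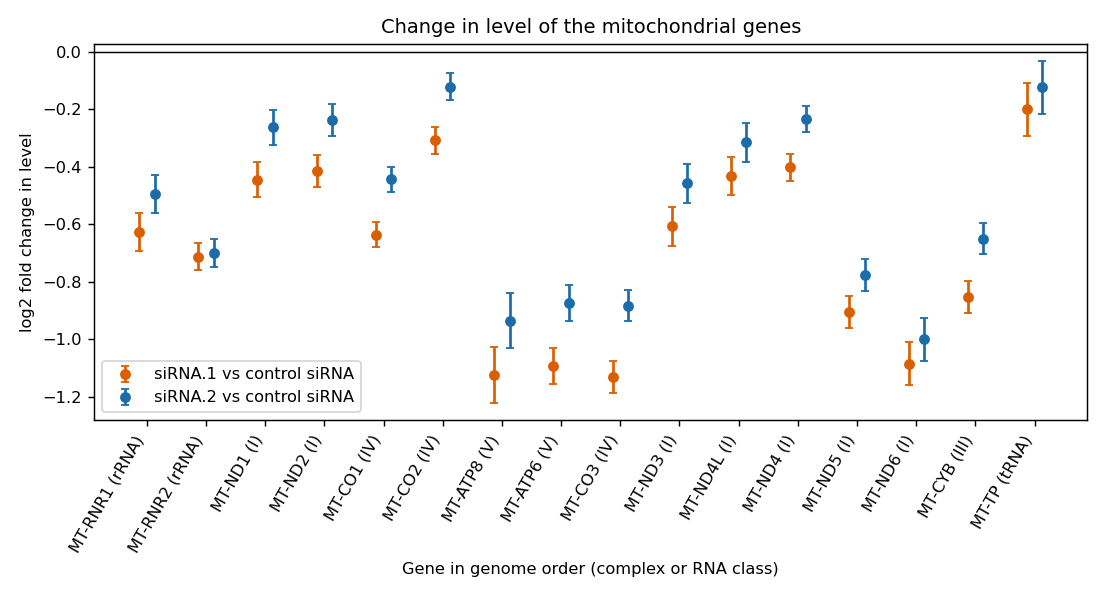
Log2 fold change in level (y axis) against control siRNA for 16 mitochondrial genes in genome order (x axis), after siRNA.1 in orange and siRNA.2 in blue; bars are 95% intervals from the edgeR fit. All points lie below 0, and MT-ATP8, MT-ATP6, MT-CO3 and MT-ND6 lie lowest among the mRNAs plotted for siRNA.1.

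Within complex V, both genes fell to about the same extent. MT-ATP8, a small membrane subunit of ATP synthase, was at 1300, 1083 and 1148 FPKM in the control libraries, 506, 576 and 570 FPKM after siRNA.1, and 643, 598 and 620 FPKM after siRNA.2. Every siRNA library lay below every control library, at log2 fold changes of -1.12 ± 0.05 (SE) and -0.94 ± 0.05. MT-ATP6, the proton channel subunit, was at 3803, 3823 and 4052 FPKM in control, 1829, 1871 and 1884 FPKM after siRNA.1, and 2132, 2127 and 2164 FPKM after siRNA.2. Its log2 fold changes were -1.09 ± 0.03 and -0.87 ± 0.03, and the 3 conditions did not overlap.

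The complex IV genes differed widely from each other. MT-CO3, a core subunit encoded directly downstream of MT-ATP6, was at 6880, 7097 and 7540 FPKM in control, 3393, 3296 and 3317 FPKM after siRNA.1, and 3931, 3893 and 3933 FPKM after siRNA.2, at log2 fold changes of -1.13 ± 0.03 (SE) and -0.88 ± 0.03. MT-CO1 was at 10800, 10568 and 10530 FPKM in control, 6865, 6994 and 7062 FPKM after siRNA.1, and 7803, 7752 and 8094 FPKM after siRNA.2, at log2 fold changes of -0.64 ± 0.02 and -0.44 ± 0.02. MT-CO2 had the highest FPKM of the mitochondrial genes in every library, at 13591, 13396 and 13555 in control, 11128, 11113 and 11143 after siRNA.1, and 12440, 12720 and 12422 after siRNA.2. Its log2 fold changes were -0.31 ± 0.02 and -0.12 ± 0.02. For each of the 3 genes the 3 conditions were fully separated, in the order control, siRNA.2, siRNA.1.

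The complex III mRNA, MT-CYB, encodes cytochrome b. It was at 4309, 4116 and 4125 FPKM in control, 2387, 2343 and 2357 FPKM after siRNA.1, and 2636, 2630 and 2794 FPKM after siRNA.2, at log2 fold changes of -0.85 ± 0.03 (SE) and -0.65 ± 0.03. No siRNA library reached the control range.

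The 7 complex I mRNAs fell into a lower and a higher group by their change. MT-ND5, a proton-pumping membrane subunit, was at 2583, 2455 and 2483 FPKM in control, 1326, 1396 and 1372 FPKM after siRNA.1, and 1542, 1429 and 1454 FPKM after siRNA.2, at log2 fold changes of -0.90 ± 0.03 (SE) and -0.78 ± 0.03. MT-ND6, encoded on the opposite strand and described as lacking a poly(A) tail, was at 1710, 1782 and 1855 FPKM in control, 889, 816 and 862 FPKM after siRNA.1, and 895, 921 and 878 FPKM after siRNA.2. Its log2 fold changes were -1.09 ± 0.04 and -1.0 ± 0.04, and the siRNA.1 and siRNA.2 ranges overlapped. The strand setting of the counting is not given in the sources used here, so sense and antisense reads over MT-ND6 cannot be told apart.

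MT-ND4, another proton-pumping subunit, was at 7894, 7655 and 8000 FPKM in control, 6045, 6026 and 6100 FPKM after siRNA.1, and 6697, 6804 and 6689 FPKM after siRNA.2, at log2 fold changes of -0.40 ± 0.02 (SE) and -0.23 ± 0.02. MT-ND1, MT-ND2 and MT-ND4L changed by similar amounts, between -0.44 ± 0.03 and -0.42 ± 0.03 on the log2 scale after siRNA.1 and between -0.31 ± 0.03 and -0.24 ± 0.03 after siRNA.2. MT-ND1 was at 2318 to 2404 FPKM in control, 1738 to 1825 after siRNA.1 and 1947 to 2010 after siRNA.2. MT-ND2 was at 3418 to 3456, 2594 to 2670 and 2885 to 2978 FPKM in the same order. MT-ND4L varied more between libraries, at 3912 to 4412, 2850 to 3480 and 3312 to 3525 FPKM. MT-ND3 lay between the groups, at 3520 to 3972, 2464 to 2522 and 2679 to 2820 FPKM, at log2 fold changes of -0.61 ± 0.03 and -0.46 ± 0.03.

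For both rRNAs the ranges after the siRNAs overlapped each other. MT-RNR2 was at 6645, 6466 and 6905 FPKM in control, 4108, 4128 and 4218 FPKM after siRNA.1, and 4190, 4198 and 4040 FPKM after siRNA.2. Both siRNA conditions lay below control and overlapped each other, at log2 fold changes of -0.71 ± 0.02 (SE) and -0.70 ± 0.02. MT-RNR1, the small rRNA, was at 1517, 1659 and 1529 FPKM in control, 1009, 941 and 1157 FPKM after siRNA.1, and 1132, 1165 and 1069 FPKM after siRNA.2, at log2 fold changes of -0.63 ± 0.03 and -0.49 ± 0.03. With 1 library left out, the siRNA.1 value of MT-RNR1 ran from -0.714 to -0.554, beyond both ends of its 95% interval (-0.692 to -0.559). As rRNAs carry only short tails, their counts in captured RNA are not their abundance in the cell.

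MT-TP had 2949, 3264 and 3952 counts in control, 3426, 2745 and 3159 after siRNA.1, and 3723, 3821 and 4271 after siRNA.2. Its FPKM values of 2827 to 3247, 2626 to 2836 and 2765 to 2925 overlapped between all conditions, at log2 fold changes of -0.20 ± 0.05 (SE) and -0.12 ± 0.05. Of the other tRNA genes, 18 were at 0 in all 9 libraries, which allows up to 0.133 to 0.196 CPM per library (3 counts; counting error only). These genes are 59 to 75 bases long and most adjoin another gene. MT-TP has no gene for 546 bases on one side, to the end of the linear reference. MT-TF likewise has none for 576 bases on one side, and it had 1 count in a single library. How reads on 2 genes were counted is not given, so these limits are of counts and not of tRNA levels. The part of this layout was not tested. MT-TF, MT-TC and MT-TY had 1 or 2 counts, each in a single library, and no fold is given for them.

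In the control libraries, levels per length were ordered MT-CO2 (13396 to 13591 FPKM), MT-CO1, MT-ND4, MT-CO3, MT-RNR2, MT-ND4L, MT-CYB, MT-ATP6, MT-ND3, MT-ND2, MT-TP, MT-ND5, MT-ND1, MT-ND6, MT-RNR1 and MT-ATP8 (1083 to 1300 FPKM). Neighbours whose control ranges overlapped were MT-CO3 and MT-RNR2, MT-ND4L and MT-CYB, and MT-ATP6 and MT-ND3. The range of MT-ND4L (3912 to 4412 FPKM) also overlapped those of MT-ATP6 and MT-ND3. FPKM divides by full gene length, so places of short genes are uncertain, among them MT-TP (68 bases), MT-ATP8 (207) and MT-ND4L (297).

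A separate question is whether the make-up of the mitochondrial RNA changed, which does not depend on its total. In this fit the counts of each mitochondrial gene were scaled by the mitochondrial total of the library, and p-values were adjusted over all 21395 genes. Of 17 genes tested, 13 were called after siRNA.1 (6 higher, 7 lower) and 13 after siRNA.2 (6 higher, 7 lower), where 30.3% and 30.8% of all genes were called. The share over all genes includes genes near 0.1 FPKM, whose small changes are harder to call, and is not matched by expression to these 17. The comparisons share their control libraries. Shares of a total are tied to each other, since a fall in some requires a rise in others.

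**Figure D2:**
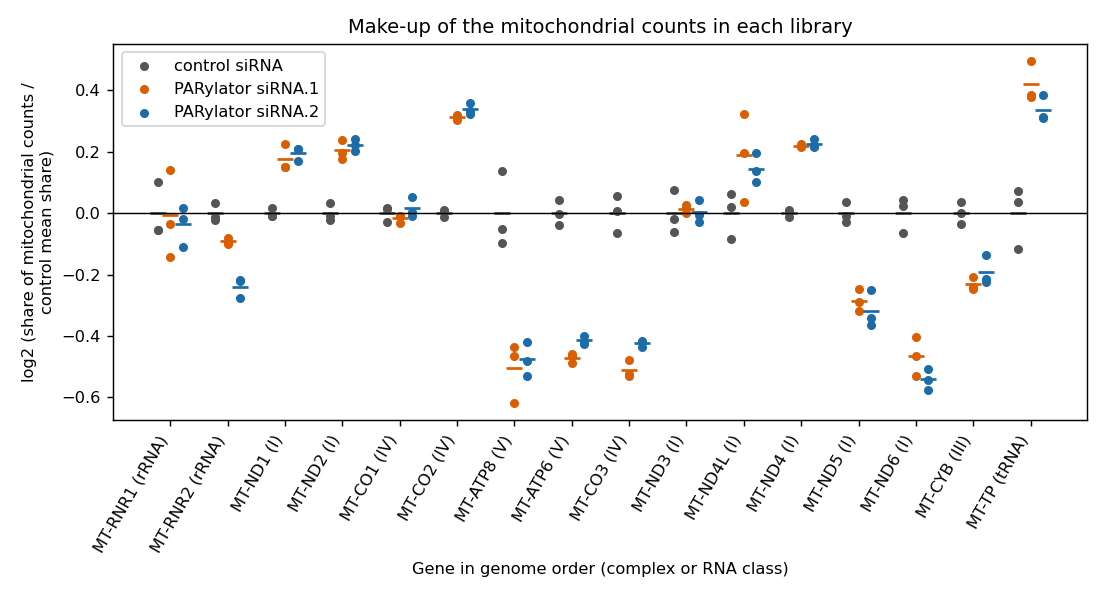
Log2 of the share of the mitochondrial counts relative to the control mean (y axis) for 16 genes in genome order (x axis); each point is a library and each dash a condition mean. MT-ND1, MT-ND2, MT-CO2, MT-ND4 and MT-TP lie above the control libraries after both siRNAs, and MT-RNR2, MT-ATP8, MT-ATP6, MT-CO3, MT-ND5, MT-ND6 and MT-CYB lie below.

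MT-CO3 fell from 7.10%, 7.46% and 7.72% of the mitochondrial counts in control to 5.33%, 5.16% and 5.14% after siRNA.1 and 5.57%, 5.49% and 5.55% after siRNA.2. Its log2 fold changes within the mitochondrial total were -0.51 ± 0.03 (SE; edgeR adjusted p = 6.35e-67) and -0.42 ± 0.03 (adjusted p = 6.02e-49). MT-ATP6 fell by 0.47 ± 0.03 and 0.41 ± 0.03 on the log2 scale (edgeR adjusted p = 1.73e-46 and 2.98e-37), and MT-ATP8 by 0.50 ± 0.05 and 0.48 ± 0.05 (adjusted p = 1.73e-21 and 5.72e-20). These 3 genes are consecutive on the plus strand.

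The genes at the other end of the plus strand and MT-ND6 opposite them also fell. MT-ND6 was at 1.18%, 1.25% and 1.27% of the mitochondrial counts in control, 0.934%, 0.855% and 0.894% after siRNA.1, and 0.849%, 0.870% and 0.829% after siRNA.2, at log2 fold changes of -0.47 ± 0.04 (SE; edgeR adjusted p = 7.84e-32) and -0.54 ± 0.04 (adjusted p = 6.28e-42). MT-ND5 fell by 0.28 ± 0.03 and 0.32 ± 0.03 (edgeR adjusted p = 8.94e-23 and 7.33e-28) and MT-CYB by 0.23 ± 0.03 and 0.19 ± 0.03 (adjusted p = 3.65e-16 and 2.01e-11). MT-RNR2 fell by 0.09 ± 0.02 and 0.24 ± 0.02 (edgeR adjusted p = 0.000385 and 1.53e-22), from 13.5% to 14.1% in control to 12.8% to 12.99% and 11.3% to 11.8%.

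MT-CO2 rose within the mitochondrial total, from 12.2%, 12.3% and 12.1% in control to 15.2%, 15.2% and 15.1% after siRNA.1 and 15.4%, 15.7% and 15.3% after siRNA.2. Its log2 fold changes were 0.31 ± 0.02 (SE; edgeR adjusted p = 1.37e-37) and 0.34 ± 0.02 (adjusted p = 2.54e-43). MT-ND4 rose from between 14.1% and 14.4% to between 16.6% and 16.7% after siRNA.1 and between 16.6% and 16.9% after siRNA.2, at 0.22 ± 0.02 and 0.23 ± 0.02 (edgeR adjusted p = 1.72e-20 and 8.4e-22). MT-ND2 rose by 0.20 ± 0.03 and 0.22 ± 0.03, and MT-ND1 by 0.18 ± 0.03 and 0.20 ± 0.03.

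MT-TP rose by 0.42 ± 0.05 (SE) and 0.34 ± 0.05 within the mitochondrial total (edgeR adjusted p = 5.07e-17 and 1.6e-11), from 0.253% to 0.288% in control to 0.357% to 0.386% and 0.340% to 0.358%. MT-ND4L rose by 0.19 ± 0.03 and 0.15 ± 0.03 (edgeR adjusted p = 2.58e-07 and 0.000109), but its siRNA.1 libraries, at 1.70% to 2.06%, overlapped the control libraries, at 1.56% to 1.72%, and DESeq2 did not call it after siRNA.2 (adjusted p = 0.153). MT-CO1, MT-ND3 and MT-RNR1 did not pass the test with either siRNA. Their log2 changes lay between -0.04 ± 0.03 and 0.02 ± 0.02, with 95% intervals of the difference from -0.06 to 0.06 for MT-CO1, -0.06 to 0.08 for MT-ND3 and -0.10 to 0.06 for MT-RNR1.

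Taken as sets put together after these values were seen, MT-ATP8, MT-ATP6, MT-CO3, MT-ND5, MT-ND6 and MT-CYB held 24.8% ± 0.14 (SD, n = 3) of the mitochondrial counts in control, 19.2% ± 0.11 after siRNA.1 and 19.6% ± 0.28 after siRNA.2. MT-ND1, MT-ND2, MT-CO2, MT-ND4L and MT-ND4 held 35.9% ± 0.10, 42.5% ± 0.25 and 42.9% ± 0.38. The sets cross the complexes, as MT-CO2 and MT-CO3 of complex IV, and MT-ND4 and MT-ND5 of complex I, stand on opposite sides.

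Across the 15 mRNAs and rRNAs, the change within the mitochondrial total had Pearson correlations of 0.15 (siRNA.1) and 0.11 (siRNA.2) with gene length, 0.21 and 0.28 with GC content, -0.36 and -0.32 with order in the genome, and 0.40 and 0.44 with the control FPKM. These are across genes of the same libraries, which are not independent replicates, and are given without a test.

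Ratios of FPKM between pairs show which genes kept together. The ratio of MT-ATP8 to MT-ATP6 was 0.342, 0.283 and 0.283 in control, 0.276, 0.308 and 0.303 after siRNA.1, and 0.302, 0.281 and 0.286 after siRNA.2, and the ranges overlapped. The ratio of MT-ATP6 to MT-CO3 was 0.537 to 0.553, 0.539 to 0.568 and 0.542 to 0.550 in the same order, and also overlapped. So did the ratios of MT-ND4L to MT-ND4 (0.511 to 0.559, 0.472 to 0.578 and 0.487 to 0.526) and of MT-ND2 to MT-ND1 (1.42 to 1.49, 1.46 to 1.497 and 1.46 to 1.48).

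Other pairs separated from control. The ratio of MT-CO3 to MT-CO2 was 0.506, 0.530 and 0.556 in control, 0.305, 0.297 and 0.298 after siRNA.1, and 0.316, 0.306 and 0.317 after siRNA.2. The ratio of MT-ND5 to MT-ND4 was 0.310 to 0.327 in control, 0.219 to 0.232 after siRNA.1 and 0.210 to 0.230 after siRNA.2, and that of MT-CYB to MT-ND4 was 0.516 to 0.546, 0.386 to 0.395 and 0.387 to 0.418. For MT-ND6 and MT-TP, both annotated on the minus strand, sense and antisense reads cannot be told apart. The ratio of MT-ND6 to MT-TP was 0.571 to 0.605 in control, 0.311 to 0.324 after siRNA.1 and 0.315 to 0.324 after siRNA.2. In each of these the siRNA libraries lay below all control libraries (two-sided exact permutation test, p = 0.1, the smallest that 3 against 3 libraries allow; 12 pairs were computed).

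**Figure D3:**
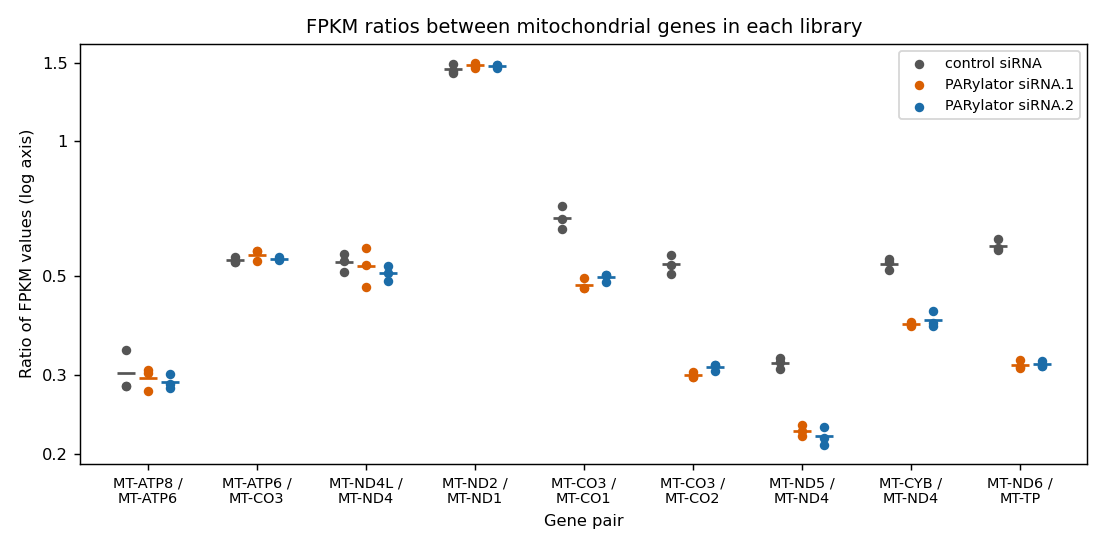
Ratio of FPKM values (y axis, log scale) for 9 gene pairs (x axis); each point is a library and each dash a condition mean. The first 4 pairs overlap between conditions, and in the other 5 the siRNA libraries lie below the control libraries, as for MT-CO3 to MT-CO2 at 0.297 to 0.317 against 0.506 to 0.556.

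The shares after both siRNAs were known when the genes were chosen, so their gap in level was known too. Levels between the siRNAs are therefore a description, and their p-values add no independent support. In level, 13 of 17 genes tested were higher after siRNA.2 than after siRNA.1 and 0 were lower, where 12.2% of all genes were called in either direction (edgeR). The differences called ran from 0.12 ± 0.03 (SE; MT-ND4L, edgeR adjusted p = 0.00851) to 0.25 ± 0.03 (MT-CO3, adjusted p = 5.64e-17) on the log2 scale, and MT-CO1 differed by 0.19 ± 0.02 (adjusted p = 1.21e-15). MT-ND6 (0.09 ± 0.04, edgeR adjusted p = 0.142), MT-TP (0.08 ± 0.05, adjusted p = 0.357) and MT-RNR2 (0.01 ± 0.02, adjusted p = 0.836) did not pass. DESeq2 did not call MT-RNR1 (adjusted p = 0.41) or MT-ND4L (adjusted p = 0.436), and without siRNA.1 replicate 1 neither MT-ND4L (0.05, edgeR adjusted p = 0.54) nor MT-ATP8 (0.13, adjusted p = 0.102) was called.

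Within the mitochondrial total, 2 of 17 genes tested differed between the siRNAs, a share close to the 12.1% called over all genes. MT-RNR2 was lower after siRNA.2, at a log2 difference of -0.15 ± 0.02 (SE; edgeR adjusted p = 1.2e-08), and MT-CO3 was higher, at 0.09 ± 0.03 (adjusted p = 0.0101). The call of MT-CO3 was lost without siRNA.1 replicate 3 (0.08, adjusted p = 0.089) and with the 13 mRNAs as the total (0.07, adjusted p = 0.0866). For MT-ATP6, MT-ND4 and MT-CO2, the 95% intervals of the difference were -0.0014 to 0.12, -0.04 to 0.05 and -0.02 to 0.07.

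Nuclear genes supply the rest of the respiratory chain and the machinery that makes and handles mitochondrial RNA, and their levels were counted by lists. The genes tested reach down to a mean of 0.1 FPKM, where small changes are harder to call than in well expressed genes. The share called over all genes is therefore not matched by expression to any list. Of 75 nuclear subunits of complexes I, III, IV and V tested, 13 rose and 16 fell after siRNA.1 and 26 rose and 8 fell after siRNA.2 (edgeR), so that 29 and 34 were called, where 30.3% and 30.9% of all genes were called. Their median log2 fold changes were 0.00 and 0.08, and they ranged from -0.43 (NDUFA2, which overlaps IK, a gene with 415% of its count) to 0.38 (NDUFS4) after siRNA.1 and from -0.26 (NDUFS1) to 0.46 (NDUFB10) after siRNA.2. After both siRNAs, NDUFAB1, the mitochondrial acyl carrier protein, rose (0.34 ± 0.05 and 0.35 ± 0.05; SE), from 62.1 FPKM in control to 80.0 and 79.6, while the iron-sulfur subunit NDUFS1 fell (-0.35 and -0.26). NDUFS4 and NDUFA11 rose (0.38 and 0.30, 0.25 and 0.34), and NDUFA2 and NDUFB4 fell (-0.43 and -0.24, -0.25 and -0.19).

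In complex III, CYC1, cytochrome c1, rose after both siRNAs (0.15 and 0.29), and the core proteins UQCRC1 (-0.26 and -0.25) and UQCRC2 (-0.29 and -0.17) fell. In complex IV, COX6C fell (-0.15 and -0.17) and 0 of 11 genes tested rose with both. In complex V, ATP5MK, ATP5MF and ATP5MG rose by 0.21 to 0.33, and ATP5F1A and ATP5F1C, subunits of the catalytic head, fell (-0.23 and -0.18, -0.21 and -0.13).

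**Figure D4:**
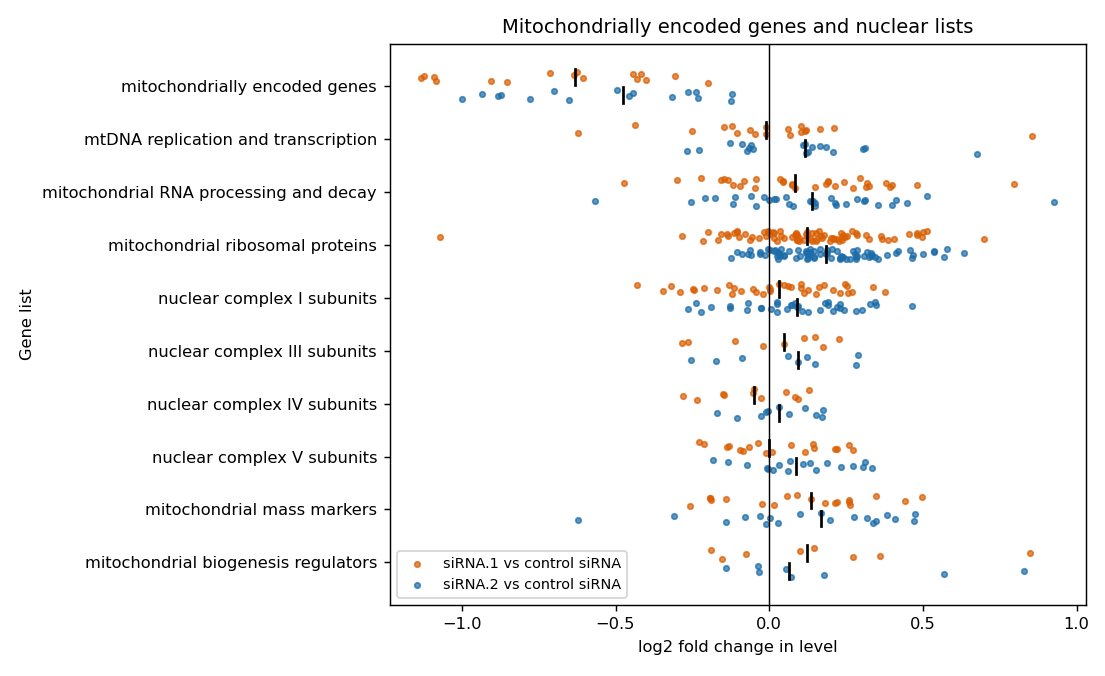
Log2 fold change in level against control siRNA (x axis) for 16 mitochondrially encoded genes and 9 nuclear lists (y axis), after siRNA.1 in orange and siRNA.2 in blue; each point is a gene and black marks are medians. The mitochondrially encoded genes lie below 0 and the medians of the nuclear lists lie between -0.05 and 0.18.

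Of 19 genes for mitochondrial DNA replication and transcription, 1 rose and 3 fell after siRNA.1, and 4 rose and 1 fell after siRNA.2. These are 21.1% and 26.3% of the list, below the 30.3% and 30.9% called over all genes. TWNK, the replicative helicase, was the only member to rise after both siRNAs, from 12.1 ± 0.65 FPKM (SD, n = 3) in control to 22.2 ± 0.32 and 19.4 ± 0.55, at log2 fold changes of 0.85 ± 0.06 (SE; edgeR adjusted p = 1.56e-39) and 0.68 ± 0.06 (adjusted p = 3.99e-25). TFAM, which packages mitochondrial DNA and starts its transcription, was at -0.10 (edgeR adjusted p = 0.127) and -0.27 (adjusted p = 3.22e-06), and POLRMT, the mitochondrial RNA polymerase, at 0.12 (adjusted p = 0.37) and 0.31 (adjusted p = 0.00312). TFAM, POLRMT and the genes LRPPRC, SLIRP, SUPV3L1, TOMM20, NDUFB10 and YY1 are named for their roles, or their values, after these were seen.

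Of 33 genes for mitochondrial RNA processing and decay, 14 rose and 3 fell after siRNA.1, and 13 rose and 1 fell after siRNA.2, with medians of 0.08 and 0.14. These are 51.5% and 42.4% of the list, beside 30.3% and 30.9% over all genes. PNPT1, the exoribonuclease of the mitochondrial RNA degradosome and also an interferon-inducible gene, rose from 21.95 ± 0.73 FPKM (SD, n = 3) to 38.9 ± 1.23 and 42.1 ± 1.02, at log2 fold changes of 0.80 ± 0.05 (SE; edgeR adjusted p = 2.73e-57) and 0.93 ± 0.05 (adjusted p = 7.77e-79). SUPV3L1, the helicase partner of PNPT1, rose by 0.32 and 0.40 (edgeR adjusted p = 3.2e-05 and 3.36e-08). LRPPRC and SLIRP, which form a complex that stabilises mitochondrial mRNAs, rose by 0.24 and 0.31 and by 0.39 and 0.36 (adjusted p at most 3.43e-07). PTCD2 (0.48 and 0.45) and DDX28 (0.29 and 0.51) rose, and NSUN3, a tRNA methyltransferase, fell (-0.47 and -0.57).

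Of 79 mitochondrial ribosomal protein genes, 30 rose and 2 fell after siRNA.1, and 39 rose and 0 fell after siRNA.2, at medians of 0.12 and 0.18. These are 40.5% and 49.4% of the list, beside 30.3% and 30.9% over all genes. MRPS18C (0.70 and 0.57), MRPL40 (0.48 and 0.63) and MRPL12 (0.51 and 0.58) had the largest mean change of both siRNAs. Of 19 structural and import genes taken as mitochondrial mass markers, 10 rose and 5 fell after siRNA.1. After siRNA.2, 11 rose and 3 fell. These are 78.9% and 73.7% of the list, beside 30.3% and 30.9% over all genes, which are not matched by expression. The chaperones HSPD1 (0.50 and 0.38) and HSPA9 (0.35 and 0.48) and the import subunit TIMM44 (0.44 and 0.41) rose, and IMMT of the cristae junctions fell (-0.19 and -0.31). TOMM20, an outer membrane import receptor, moved in opposite directions, at 67.9 ± 1.60 FPKM (SD, n = 3) in control, 80.5 ± 0.77 after siRNA.1 and 44.4 ± 1.03 after siRNA.2.

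Of 8 regulators of mitochondrial biogenesis tested, 3 rose and 1 fell after siRNA.1, and 3 rose and 0 fell after siRNA.2, beside 30.3% and 30.9% called over all genes. The member that fell was YY1 (-0.15 ± 0.05; SE; edgeR adjusted p = 0.011), which was at 0.07 after siRNA.2 (adjusted p = 0.306). The 3 that rose did so after both siRNAs. MYC rose from 45.1 ± 0.63 FPKM (SD, n = 3) to 82.8 ± 1.03 and 80.7 ± 1.12, PPARGC1B by 0.36 and 0.57 and PPRC1 by 0.27 and 0.18 on the log2 scale. Of the 30 nuclear genes named by the size of their change, 10 overlap another gene whose count is over 15% of their own. Their counts are uncertain to that extent. POLRMT, TFAM, LRPPRC, SLIRP, SUPV3L1, NDUFB10, TOMM20 and YY1 were not checked for overlap. The other gene's count was above that of the named gene for NDUFA2 with IK (415%), PTCD2 with MRPS27 (277%), DDX28 with DUS2 (141%) and MRPL40 with HIRA (106%), and it was 54.7% for TWNK with MRPL43.

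The nuclear genome holds copies of mitochondrial sequence that can take reads from their parent genes. Of 415 such copies listed, 64 had any count, and 3 on chromosome 1 held 99.4% of the counts on copies. MTATP6P1 (chr1:633696-634376) had 14.8% to 16.5% of the count of MT-ATP6 in control, 14.2% to 15.01% after siRNA.1 and 13.9% to 14.2% after siRNA.2. Of its windows in GRCh38, 46.7% of those of 50 bases, 11.9% of 100 and 0% of 150 are found unchanged on chromosome M. How far it can take reads thus depends on read length, which was not examined. MTND2P28 (chr1:629640-630683) had 5.09% to 6.01% of the count of MT-ND2, and MTCO1P12 (chr1:631074-632616) 0.139% to 0.193% of that of MT-CO1. At 100 bases, 26.0% of the MTND2P28 windows and 27.8% of the MTCO1P12 windows are found unchanged. Their log2 fold changes after siRNA.1 and siRNA.2 were -1.20 ± 0.04 (SE) and -1.03 ± 0.04 for MTATP6P1, -0.34 ± 0.05 and -0.14 ± 0.05 for MTND2P28, and -0.93 ± 0.10 and -0.60 ± 0.10 for MTCO1P12. With the copies added, the mitochondrial share was 7.64% in control, 5.06% after siRNA.1 and 5.59% after siRNA.2.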

How the data were processed

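RNA-seq of TE13 cells covered 3 conditions with 3 libraries each, grouped by their labels. The study's methods state that poly(A)+ RNA was sequenced and that reads were aligned with STAR to GRCh38 and counted per gene with featureCounts. Tool versions, annotation release, strand setting and treatment of reads on 2 genes are not given in the sources used here. The authors deposited raw counts per gene, not normalized. The authors also deposited FPKM values, which were used for levels per length.

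Counts were tested with edgeR 4.0.16 (R 4.3.3; quasi-likelihood test, TMM scaling, 3 conditions in 1 fit, no covariates) over 21395 genes, those averaging 0.1 FPKM or more. P-values were adjusted by Benjamini-Hochberg, and calls were made at 0.05. A second fit scaled mitochondrial genes by the mitochondrial total of each library and other genes by the other counts. Standard errors are those of the log2 fold change, and intervals are 95%. Both come from the edgeR fit, whose estimate of the spread is shared across genes. The fits were tested on simulated data. Alternatives used DESeq2 1.42.0 and limma 3.58.1, other filters, scalings and totals, and each library left out.

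The mitochondrial genes, nuclear lists and tests were chosen with earlier results of these data known. Text names all mitochondrial genes with a mean of at least 10 counts, copies with at least 100, and per nuclear list and direction up to 3 genes with the largest mean change, called with both siRNAs at a mean of at least 1 FPKM. Positions of the 37 genes match GENCODE 44, and sequences are from GRCh38. Python 3.11.15 with pandas 2.3.3 was used for summaries.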

Additional observations from a re-analysis of the deposited data

Results flagged for a closer look

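By the direct test of siRNA.2 against siRNA.1 (edgeR, adjusted p under 0.05 over all genes), the siRNA effects differed for 13 mitochondrial genes in level. Within the mitochondrial total they differed for 2. The differences in level follow the shares already known and are a description. In level, the differences (siRNA.2 minus siRNA.1, log2) were 0.131 for MT-RNR1, 0.182 for MT-ND1, 0.178 for MT-ND2, 0.193 for MT-CO1 and 0.187 for MT-CO2. They were 0.189 for MT-ATP8, 0.218 for MT-ATP6, 0.249 for MT-CO3, 0.149 for MT-ND3 and 0.117 for MT-ND4L. They were 0.168 for MT-ND4, 0.128 for MT-ND5 and 0.202 for MT-CYB. Within the mitochondrial total they were -0.148 for MT-RNR2 and 0.088 for MT-CO3.

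Of the nuclear genes named, differences in level passed the same test for TOMM20 (-0.843), TWNK (-0.178), TFAM (-0.163), HSPD1 (-0.114), HSPA9 (0.127), PNPT1 (0.131), CYC1 (0.140), YY1 (0.224) and NDUFB10 (0.359), and for the copies MTND2P28 (0.204), MTCO1P12 (0.323) and MTATP6P1 (0.172). TOMM20 was above all control libraries with siRNA.1 and below them all with siRNA.2.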

How the results depend on the processing

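Mitochondrial genes called in level numbered 16 of 17 with siRNA.1 under all alternatives and 15 or 16 with siRNA.2, MT-TP being the gene that varied; against control these counts describe the genes' choice and support nothing. Between the siRNAs, 11 to 13 were called, a count that follows the shares already known. Within the mitochondrial total, 13 were called with siRNA.1 under all alternatives and 12 or 13 with siRNA.2. Between the siRNAs, 1 was called with the 13 mRNAs as the total, and 1 to 3 with 1 library left out (1 without siRNA.1 replicate 3). Genes of the nuclear lists called between the siRNAs numbered 20 to 39 with 1 library left out. The lowest numbers came without siRNA.2 replicate 3 (20), siRNA.1 replicate 3 (21) and siRNA.2 replicate 2 (22). In the fit reported, the share called between the siRNAs ran from 7.6% (mitochondrial ribosomal proteins) to 47.4% (mass markers) by list, beside 12.2% over all genes. Nothing is read from the counts of the lists together.

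The mitochondrial share was 26.2%, 18.8% and 20.4% in control, siRNA.1 and siRNA.2 as a share of summed FPKM, and 5.59% with siRNA.2 with nuclear copies added. With 1 library left out it stayed within 7.53% to 7.63%, 5.0% to 5.03% and 5.55% to 5.56%.

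Values near 0 that were not called in the fit reported changed sign, and the cause was not tested. With library totals, MT-RNR2 differed between the siRNAs by -0.003 in level (-0.0028 to 0.026 with 1 library left out). With the 13 mRNAs as the total, MT-CO1 was at -0.019 and MT-ND3 at -0.032 with siRNA.2, and MT-ND1, MT-ND2 and MT-ND4 differed between the siRNAs by -0.0015, -0.0052 and -0.015. With limma-voom MT-ND3 was at -0.0004 with siRNA.2. With 1 library left out, MT-RNR1 within the mitochondrial total ranged from -0.088 to 0.055 with siRNA.1, -0.063 to 0.018 with siRNA.2 and -0.092 to 0.052 between them. MT-ND3 ranged from -0.014 to 0.054, -0.026 to 0.043 and -0.032 to 0.0048 in the same order, MT-CO1 from -0.0024 to 0.029 with siRNA.2, and MT-ATP8 and MT-ND4L between the siRNAs from -0.026 to 0.063 and from -0.115 to 0.026. The lowest of these, for MT-ND4L without siRNA.1 replicate 1 (-0.115, edgeR adjusted p = 0.0146), passed the test. MT-ND6 between the siRNAs was called in level without siRNA.1 replicate 1 (0.12, edgeR adjusted p = 0.0394), and MT-RNR1 was not called without siRNA.1 replicate 2 (0.06, adjusted p = 0.335) or siRNA.2 replicate 2 (0.10, adjusted p = 0.101).

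Deviations of libraries with the same replicate number correlated between -0.19 and 0.11, and those with different numbers between -0.08 and 0.18. No pairing by number was seen, but 3 libraries per condition are too few to exclude it. With the replicate block, 16, 15 and 13 mitochondrial genes were called in level and 13, 13 and 2 within the mitochondrial total. Libraries of a condition differed by more than sampling noise (chi-square per degree of freedom 2.84 to 5.46). With 3 libraries per condition, a single ratio could not reach an exact p below 0.1.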
